A study of Mus musculus with 28 samples.

Results

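The subchondral bone of 8 mice was compared 1 week after knee surgery, 4 mice with destabilization of the medial meniscus (DMM) against 4 with a sham operation. These 8 arrays of 28 in the series were chosen by their labels, subchondral bone as the source and DMM or SHAM at 1 week in the title. In DMM the ligament that ties the medial meniscus to the tibia is cut, which makes the joint unstable and leads to osteoarthritis, and in sham mice it was exposed and left whole. All were male C57BL6 mice without a transgene, 10 to 12 weeks old at surgery and operated on both knees, and the protocol shared by all samples also names Jaffa mice. Each array held RNA from laser-microdissected bone under the medial tibial cartilage of 1 joint of 1 mouse. The DMM mice carry the numbers 67, 77, 85 and 93, and the sham mice 66, 68, 86 and 96. A total of 490 miRNAs had a value on each of the 16 bone arrays (both weeks), and all values are log2 signals as deposited.

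MicroRNAs are short RNAs that guide a silencing complex to messenger RNAs, mainly by pairing through the seed, bases 2 to 8 from the 5′ end. Subchondral bone lies under the joint cartilage, is rebuilt by osteoblasts and osteoclasts, and encloses marrow, so that RNA cut from it also comes from red and white blood cells. In osteoarthritis this bone is remodelled together with the cartilage above it, and miRNAs such as the miR-29 family and miR-223 are known regulators of bone-forming and bone-resorbing cells.

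The sequences below are shown because the account turns on these miRNAs. The first 5 had the lower means after DMM that are described in detail, the next 5 had the higher means or share a seed with one that did, and the last differed in its DMM effect between cartilage and bone. They are mature sequences from RefSeq (GRCm38.p6), 5′ to 3′, with the seed in capitals. A mature sequence was matched for 399 of the 490 miRNAs and for 19 of the 20 that the naming rule selected. The exception was miR-3075-5p.
miR-652-3p: aAUGGCGCcacuaggguugug
miR-362-5p: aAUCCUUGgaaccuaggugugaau
miR-760-3p: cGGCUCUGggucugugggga
miR-223-3p: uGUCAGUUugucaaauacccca
miR-142a-3p: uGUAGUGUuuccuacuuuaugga
miR-106a-3p: aCUGCAGUgccagcacuucuuac
miR-17-3p: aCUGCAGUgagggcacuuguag
miR-181b-5p: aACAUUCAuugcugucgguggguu
miR-181a-5p: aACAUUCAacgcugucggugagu
miR-5100: uCGAAUCCcagcggugccucu
miR-6931-5p: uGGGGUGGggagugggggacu

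In GRCm38.p6, 4 of these lie on chromosome X. They are miR-652-3p (chrX:142739060-142739080, plus strand), miR-362-5p (chrX:7242019-7242042, minus strand), miR-223-3p (chrX:96242884-96242905, plus strand) and miR-106a-3p (chrX:52742505-52742527, minus strand). miR-142a-3p lies at chr11:87756903-87756925 on the plus strand, in a gene known for its activity in blood cells. miR-181b-5p and miR-181a-5p are each encoded at 2 loci, and on chromosome 1 they lie side by side, at chr1:137966650-137966673 and chr1:137966468-137966490. miR-760-3p lies at chr3:122293615-122293634 and miR-5100 at chr11:60728698-60728718. miR-106a-3p and miR-17-3p come from different clusters of related hairpins and share the seed CUGCAGU.

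The sham mice differed from each other more than the DMM mice did. The median correlation across the 490 miRNAs was 0.928 between sham mice (lowest 0.809, between mice 68 and 96), 0.971 between DMM mice and 0.960 between groups. The within-group SD was larger in sham for 407 of 490 miRNAs, with a median of 0.348 in sham and 0.182 in DMM. At 6 weeks the medians were 0.293 in sham and 0.307 in DMM. Sham mouse 68 lay more than 1 log2 unit from the mean of the other 7 mice for 73 miRNAs and sham mouse 96 for 62, against 0 to 15 for the other 6 mice. Together these 2 mice pulled in opposite directions. miR-5622-3p read 12.51 in mouse 68 and 7.56 to 9.72 in the others, whereas miR-19a-3p, of the proliferation-linked miR-17-92 cluster, read 9.51 in mouse 96, 6.58 in mouse 68 and 7.24 to 7.81 in the rest.

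The 2 mice also differed by the base composition of the miRNAs. Among the 133 miRNAs with the lowest GC content (27.3% to 48%), the median deviation from the mean of the 8 mice was -0.48 in mouse 68 and 0.61 in mouse 96. Among the 126 with the highest (61.9% to 100%) it was 0.28 and -0.15. Across the 399 miRNAs with a sequence, which share an array, the deviation correlated with GC content at 0.41 in mouse 68 and -0.56 in mouse 96, and between -0.15 and 0.25 in the other 6. The median DMM minus sham difference was -0.17 in the low GC class, -0.06 in the middle class of 140 and 0.01 in the high class. The part of base composition in the differences between the groups was not tested.

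**Figure D1:**
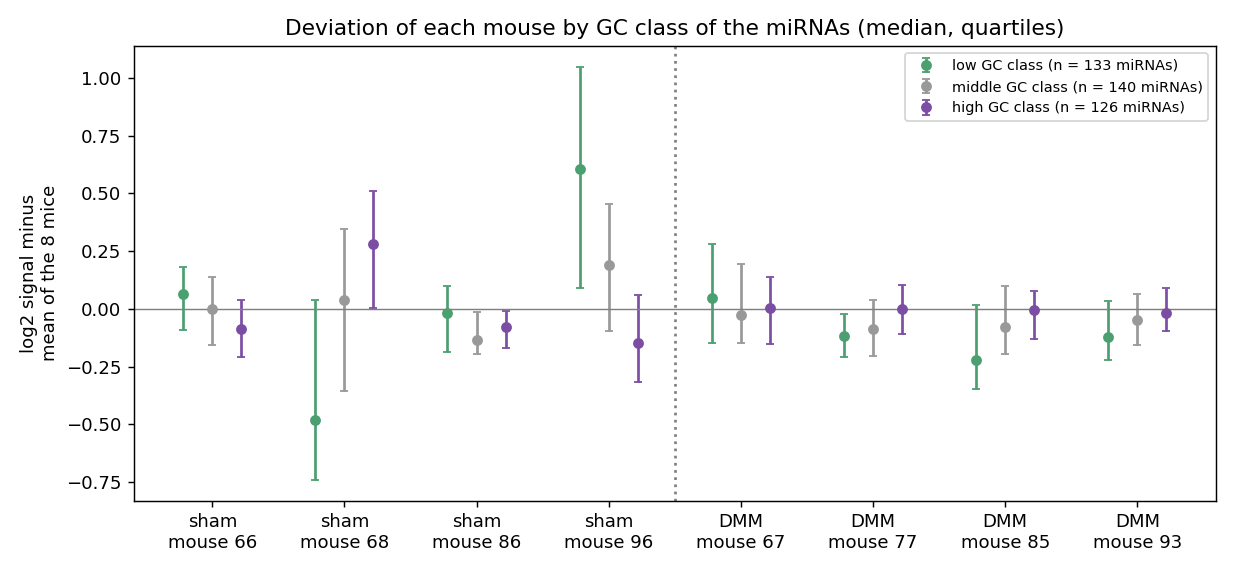
The y axis shows the log2 signal minus the mean of the 8 mice, and points with bars give the median and quartiles over the miRNAs of a GC class in each mouse on the x axis. The low GC class sits at -0.48 in sham mouse 68 and at 0.61 in sham mouse 96, farther from 0 than in any other mouse.

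No miRNA in subchondral bone passed the threshold between DMM and sham mice at 1 week. By limma, 0 of 490 had an adjusted p under 0.05 (0%), and the smallest adjusted p was 0.999. At an unadjusted p under 0.05, 0 were higher (0%) and 3 were lower (0.612%), namely miR-3075-5p, miR-652-3p and miR-362-5p. The differences were small, from -0.64 to 0.98 on the log2 scale, and 8 exceeded 0.5 in either direction, 1 higher and 7 lower. None reached 1, the size of a 2-fold change. The 95% confidence interval lay wholly within a 2-fold change for 421 of 490 miRNAs (85.9%) and within a 1.5-fold change for 215 (43.9%), with a median standard error of 0.23. For the remaining miRNAs the interval held a 2-fold difference in at least 1 direction. The number of mice and their spread set this precision.

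**Figure D2:**
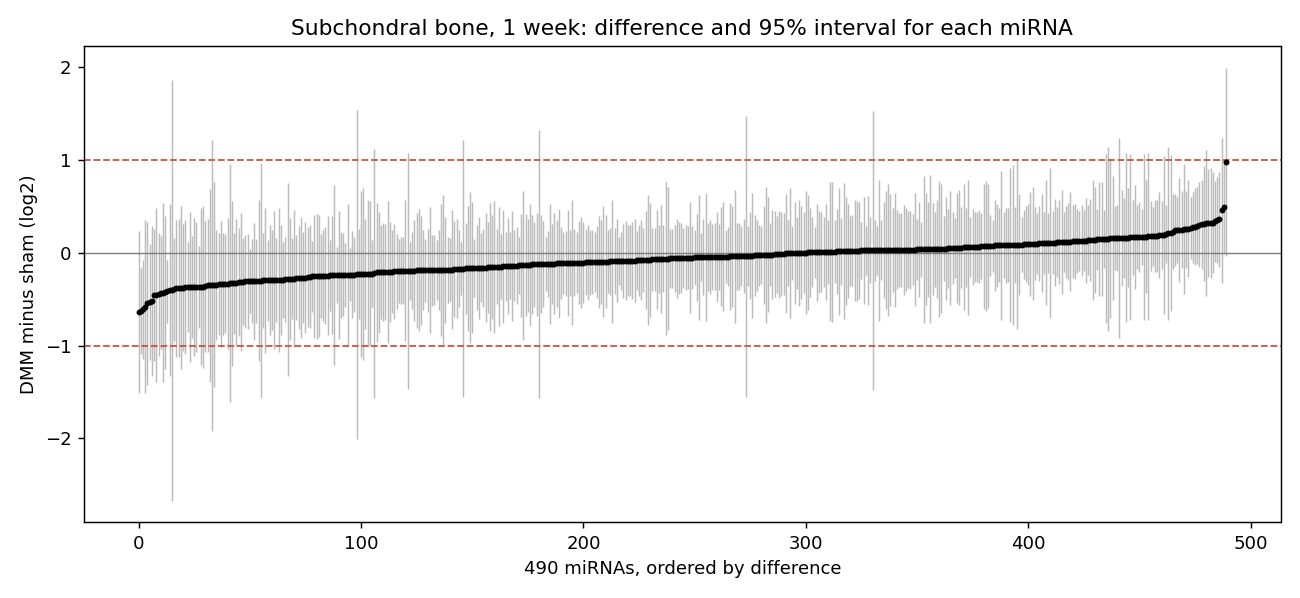
Each point is the DMM minus sham difference (log2, y axis) of 1 of 490 miRNAs ordered by size (x axis), with its 95% confidence interval as a bar. The dashed lines mark 2-fold changes, and every point lies between them, while 421 of the 490 intervals do.

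More miRNAs were lower than higher, 298 against 192, with a median of -0.06. That balance moved with the scaling of the arrays. The median was -0.001 after quantile normalization and 0.08 after centring each array on its 75th percentile, a shift of all miRNAs by over 0.1, so small differences of 1 sign carry no direction of their own.

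The leading miRNAs with lower means after DMM were miR-3075-5p, miR-652-3p and miR-362-5p. miR-652-3p, encoded on the X chromosome, read 8.82, 8.47, 8.41 and 9.13 in sham mice 66, 68, 86 and 96, and 8.27, 8.35, 8.30 and 8.25 in DMM mice 67, 77, 85 and 93. The highest DMM mouse lay below the lowest sham mouse. The difference was -0.42 ± 0.16 (SE, n = 4 and 4, 95% confidence interval -0.75 to -0.08) and -0.28 without sham mouse 96, and the DMM mice were close together, with an SD of 0.041 against 0.333 in sham. miR-362-5p read 5.81, 6.34, 5.63 and 6.13 in the sham mice and 5.47, 5.26, 5.15 and 5.59 in the DMM mice. These groups did not overlap either, and the difference was -0.61 ± 0.25 (SE, interval -1.15 to -0.08). miR-3075-5p read 6.15, 6.07, 5.46 and 6.01 in the sham mice and 5.06, 5.47, 5.47 and 5.20 in the DMM mice, with sham mouse 86 among the DMM values. Its difference was -0.62 ± 0.22 (SE, interval -1.09 to -0.16). The signals of miR-362-5p and miR-3075-5p were low, with means below the array medians of 6.17 to 6.39 in both groups.

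miR-760-3p showed the same order at a smaller size. It read 5.66, 5.80, 5.45 and 5.77 in the sham mice and 5.39, 5.35, 5.36 and 5.36 in the DMM mice. The groups were separate, and the difference was -0.31 ± 0.16 (SE, interval -0.65 to 0.04). Its signal was also low, below the array medians of 6.17 to 6.39 in every mouse.

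miR-223-3p and miR-142a-3p, known from myeloid cells, were also among the 10 lower ones. miR-223-3p, abundant in neutrophils and monocytes and a regulator of osteoclast formation, read 13.30, 12.75, 13.21 and 14.09 in the sham mice and 12.31, 13.42, 12.77 and 12.72 in the DMM mice. DMM mouse 77 exceeded 3 of the 4 sham mice, and the difference was -0.53 ± 0.30 (SE, interval -1.16 to 0.10) and -0.28 without sham mouse 96. miR-142a-3p, expressed across blood lineages, had the lowest difference of all, -0.64 ± 0.41 (SE, interval -1.51 to 0.23). It read 9.58, 8.82, 10.06 and 11.49 in the sham mice and 9.17, 9.39, 9.35 and 9.48 in the DMM mice, so that sham mouse 96 was highest and sham mouse 68 lowest of the 8. Its difference was -0.14 without mouse 96 and -1.03 without mouse 68. The others were miR-3067-3p (-0.37), miR-6351 (-0.37), miR-3473g (-0.24) and miR-1904 (-0.24), each with overlapping groups. miR-3067-3p was at -0.16 without sham mouse 66, and miR-6351 at -0.24 without DMM mouse 93 and -0.25 without DMM mouse 85. In miR-3473g the DMM mice spanned only 9.34 to 9.39, and 1 of them reached the sham range of 9.38 to 9.84.

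On the higher side, miR-106a-3p had the largest difference of all 490 miRNAs, with an SD of 0.793 among the DMM mice. It read 4.61, 4.41, 4.50 and 4.82 in the sham mice and 6.34, 4.79, 4.98 and 6.15 in the DMM mice. DMM mice 67 and 93 were well above every sham mouse, while DMM mouse 77 lay within the sham range. The difference was 0.98 ± 0.48 (SE, n = 4 and 4, interval -0.03 to 1.99), a 1.97-fold higher mean, and the sham signals were near the lowest value of the table, 4.08. miR-17-3p, which shares its seed, differed by -0.15 ± 0.29 (SE).

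miR-5100, a strong signal on every array, read 12.15, 13.00, 12.98 and 12.34 in the sham mice and 12.69, 12.81, 13.53 and 13.40 in the DMM mice. DMM mice 85 and 93 exceeded all sham mice and the other DMM mice fell inside the sham range, with a difference of 0.49 ± 0.24 (SE, interval -0.01 to 1.00). miR-181b-5p, of a family that tunes lymphocyte and myeloid signalling, read 8.41, 8.07, 8.00 and 8.64 in the sham mice and 9.22, 8.47, 8.10 and 8.75 in the DMM mice. The groups overlapped, and the difference was 0.36 ± 0.22 (SE) and 0.16 without DMM mouse 67. Its seed partners miR-181a-5p, miR-181d-5p and miR-181c-5p differed by 0.25 ± 0.20, 0.03 ± 0.20 and -0.10 ± 0.28 (SE). The remaining 7 selected miRNAs were miR-574-3p, miR-7047-3p, miR-207, miR-1897-3p, miR-7687-3p, miR-1947-3p and miR-877-3p. Their differences ran from 0.24 to 0.36, with overlapping groups in each.

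**Figure D3:**
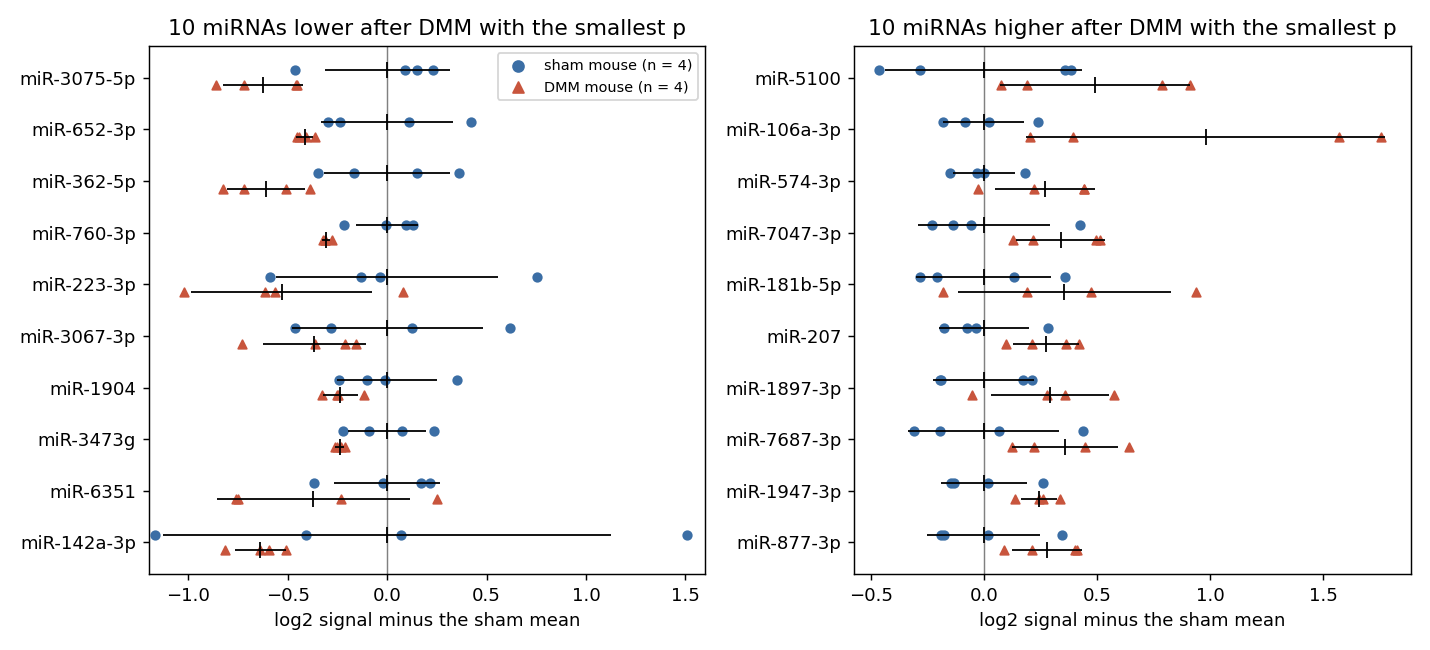
Each point is 1 mouse (circles sham, triangles DMM, n = 4 each), placed by its log2 signal minus the sham mean of that miRNA (x axis); black ticks and bars are means and SD. The DMM points of miR-652-3p and miR-760-3p are tightly grouped below the sham points, and those of miR-106a-3p are spread from 4.79 to 6.34 in signal.

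In all, 7 miRNAs had groups without any overlap, 4 higher after DMM (0.816%) and 3 lower (0.612%). The higher ones were miR-6402 (0.25 ± 0.19 SE), miR-296-5p (0.20 ± 0.15), miR-1249-3p (0.17 ± 0.14) and miR-3473f (0.12 ± 0.15). These SEs pool the spread of the bone arrays of both weeks. For miR-3473f the SDs were 0.066 in sham and 0.048 in DMM mice at 1 week, and 0.246 and 0.233 at 6 weeks. For example, miR-296-5p read 6.15 to 6.31 in the sham mice and 6.37 to 6.55 in the DMM mice. Their separation came with small differences and small spreads. The exact two-sided permutation test over the 70 regroupings of 8 mice gave each of the 7 its smallest possible p, 0.0286, which became 1 after Benjamini-Hochberg adjustment over all 490. Groups of 4 without overlap always give that smallest p, so the test adds nothing to the separation.

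Markers of marrow cells were measured in every mouse. miR-451a, made in red blood cells, read 11.04, 11.62, 12.83 and 13.37 in the sham mice and 12.35, 10.93, 12.61 and 12.05 in the DMM mice, a difference of -0.23 ± 0.44 (SE). The 5 erythroid miRNAs had a median difference of -0.23, with 2 positive and 3 negative, and their mean level ranged from 6.99 to 8.52 in the sham mice and from 6.76 to 7.88 in the DMM mice. That median was 0.088, with 5 of 5 positive, without sham mouse 96, and 0.12 without DMM mouse 77. It was -0.43 without sham mouse 68 and 0.050 without both 68 and 96. All 6 leukocyte miRNAs had negative differences, from -0.64 for miR-142a-3p to -0.15 for miR-342-3p, with a median of -0.36 beside -0.06 over all 490. None passed the threshold. The mean level of the 6 was 8.74, 8.08, 8.73 and 9.32 in sham mice 66, 68, 86 and 96, and 8.28, 8.25, 8.43 and 8.42 in the DMM mice. Every DMM mouse was below 3 sham mice and above sham mouse 68. The median was -0.16 without sham mouse 96 and -0.46 without both 68 and 96. In tissue cut as a whole, fewer cells of a type and less of its RNA per cell cannot be told apart.

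Markers of other tissues bear on the label. The cartilage-enriched miR-140-3p read 9.04 to 9.98 in the bone of these 8 mice, while its mean was 13.57 ± 0.17 (SD, n = 3 pools) in sham cartilage of the same week, although whether both tissues were normalized together was not given in the sources used here. miR-223-3p and miR-451a had sham cartilage means of 7.48 ± 0.60 and 7.46 ± 0.59 (SD, n = 3 pools) and bone means of 13.34 ± 0.56 and 12.22 ± 1.07 (SD, n = 4). In bone the 3 cartilage miRNAs had a median difference of -0.19, which was 0.0099 without sham mouse 96 and -0.38 without sham mouse 68, and the muscle marker miR-206-3p read 5.80 to 6.38, with a difference of 0.02. miR-200c-3p, of the epithelial family, read 5.26 to 6.08 and differed by -0.26. The 2 endothelial miRNAs differed by 0.03 and -0.11, and both were positive without sham mouse 96 and negative without sham mouse 68. The part of cell makeup in the group differences was not tested.

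Among miRNAs with roles in bone cells, none of 15 in the osteoblast list and none of 9 in the osteoclast list passed the threshold. The osteoblast median was -0.08, with 5 positive and 10 negative differences, and the osteoclast median was -0.08 with 2 and 7; after 75th percentile centring these medians were 0.061 and 0.055, and the first was 0.043 after quantile normalization. Without sham mouse 96 they were 0.068, with 11 of 15 positive, and 0.13, with 7 of 9 positive. Without sham mouse 68 they were -0.30 and -0.34, and without both sham mice 68 and 96 they were -0.080 and -0.067. The 3 miR-29 miRNAs, which repress collagen and other matrix genes, were at -0.25, -0.43 and -0.46 for miR-29a-3p, miR-29b-3p and miR-29c-3p. miR-29b-3p read 7.11, 6.01, 7.08 and 8.76 in the sham mice and 7.20, 6.78, 6.56 and 6.71 in the DMM mice. Sham mouse 96 raised the sham mean, and sham mouse 68, with the lowest value of all, lowered it. The family's median was -0.05 without mouse 96 and -0.82 without mouse 68. Without both of these mice it was -0.28, with 3 of 3 negative. miR-10a-5p, encoded in a Hox cluster, differed by -0.39 ± 0.26 (SE), and miR-218-5p, which promotes osteoblast differentiation, by -0.23 ± 0.37. miR-2861 and miR-3960, a pair of osteoblast regulators, differed by 0.12 ± 0.21 and 0.16 ± 0.51.

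Inflammation-induced miRNAs showed no difference past the threshold in bone 1 week after surgery. Of 7 measured, 2 were positive and 5 negative, with a median of -0.19, and without sham mouse 96 5 of 7 were positive, with a median of 0.031. The median was -0.42 without sham mouse 68, with 6 of 7 negative. Without both sham mice 68 and 96 it was -0.10, with 5 of 7 negative. miR-21a-5p, induced in many injured tissues, read 10.90, 10.33, 10.89 and 12.04 in the sham mice and 11.34, 10.76, 10.40 and 10.82 in the DMM mice, a difference of -0.21 ± 0.31 (SE, interval -0.86 to 0.44). Sham mouse 96 had the highest value of the 8 and sham mouse 68 the lowest. miR-155-5p, induced in activated macrophages and lymphocytes, differed by -0.24 ± 0.21 (interval -0.68 to 0.21). The miR-146 pair, which dampens inflammatory signalling, differed by -0.19 ± 0.28 (miR-146a-5p) and by -0.38 ± 0.35 (miR-146b-5p).

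In several families the signs of the differences changed when sham mouse 96 alone was left out, and in others when another mouse was. All 11 miRNAs of the miR-17-92 group were negative, with a median of -0.27, and without that mouse 9 of 11 were positive, with a median of 0.05. All 7 of the miR-30 family were negative, with a median of -0.18, and 5 of 7 were positive without it (0.05). The 11 let-7 miRNAs had 4 positive and 7 negative differences, and all 11 were positive without it. In the leukocyte list 6 of 6 were negative with and without mouse 96, and 5 of 6 without sham mouse 86 or without DMM mouse 77. The 5 miRNAs of the miR-23/27/24 clusters were all negative (median -0.15), and 3 of 5 were positive without mouse 96 (0.058). The 6 of the miR-15/16 family had a median of -0.25, and 0.065 without it, with 5 of 6 positive. miR-221-3p and miR-222-3p had a median of -0.17, and 0.070 without it, with both positive. The 7 mesenchymal miRNAs, among them miR-199a-3p (0.15), had a median of 0.11 with 5 positive, but 0 of 7 were positive without DMM mouse 67 (-0.16) and 1 of 7 without sham mouse 68 (-0.11). The 4 of the miR-181 family had a median of 0.14, which was -0.0044 without sham mouse 68 and 0.036 without DMM mouse 67. The 8 measured miRNAs of the imprinted Dlk1-Dio3 cluster had a median of 0.00, with 4 of each sign, and -0.078 to 0.10 when 1 mouse was left out. The 32 of the Sfmbt2 group, rodent miRNAs in an intron of a Polycomb gene with their relatives, had a median of 0.04, which was -0.051 without sham mouse 66 and 0.14 without DMM mouse 67. The 145 miRNAs with the highest catalogue numbers, which were described late, had -0.05, and 0.074 without sham mouse 68. The median of the let-7 family was -0.04 as deposited, 0.0059 after quantile normalization and 0.10 after centring, and that of the late-described miRNAs was 0.09 after centring. No member of these families passed the threshold.

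**Figure D4:**
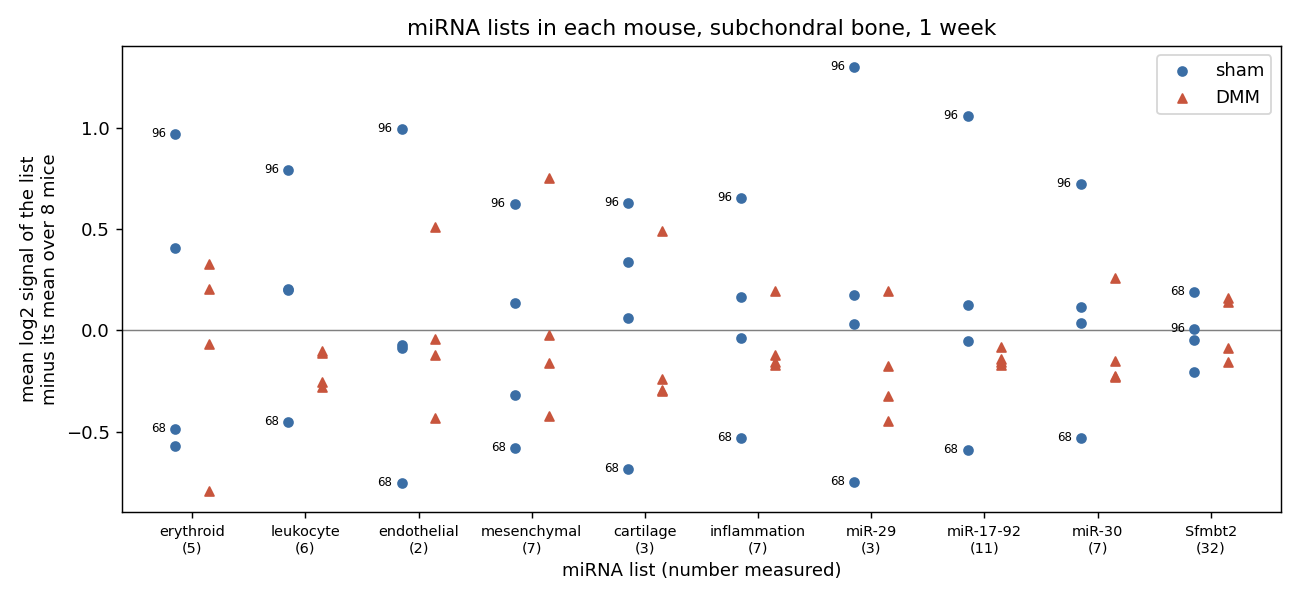
Each point is 1 mouse (circles sham, triangles DMM), placed by the mean log2 signal of a list minus its mean over the 8 mice (y axis), with the number of measured miRNAs under each list on the x axis. Sham mice 96 and 68 are labelled; mouse 96 is the highest sham mouse in every list shown except Sfmbt2.

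With weights that let limma count variable arrays less, 38 miRNAs passed the adjusted threshold, 18 higher (3.67%) and 20 lower (4.08%). The weights were 0.187 for sham mouse 68 and 0.413 for sham mouse 96, against 3.87 for sham mouse 66 and 6.21 for DMM mouse 93, so sham mouse 66 counted most in its group and DMM mouse 93 in the other. The estimate of the weights stopped before it converged. miR-5100 had 0.98 ± 0.19 (SE) with weights, against 0.49 without. miR-7015-5p had 1.49 with weights and 0.03 without. It read 7.56, 11.15, 8.76 and 8.26 in the sham mice and 7.79, 8.81, 9.53 and 9.70 in the DMM mice, a wide range inside both groups. Among the lower ones, miR-652-3p was at -0.48 ± 0.09 and miR-3075-5p at -0.71 ± 0.15 (SE). miR-140-5p was at -0.73, miR-29c-3p at -0.64, and 4 miRNAs of the metabolism-linked miR-378 family at -0.58 to -0.84. Of the 38, 37 had the same sign without weights, but both fits use the same mice, so this is no separate support. Without both sham mice 68 and 96, an alternative chosen after the data were seen, 0 miRNAs passed and 0 had an unadjusted p under 0.05.

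The bone comparison at 6 weeks used other mice. Again 0 of 490 passed (0%), with 2 at an unadjusted p under 0.05 (0.408%), and the difference between the weeks passed for 0 (0%), with 1 at an unadjusted p under 0.05 (0.204%). miR-106a-3p differed by 1.02 ± 0.48 (SE) at 6 weeks, with means of 4.67 ± 0.39 (SD, n = 4) in the sham mice and 5.68 ± 1.22 (SD, n = 4) in the DMM mice and overlapping groups as at 1 week. miR-652-3p, at -0.42 at 1 week, was at -0.04 ± 0.16 at 6 weeks, and the change between weeks was 0.37 ± 0.22 (SE). For miR-362-5p the values were -0.61 and 0.12, with a change of 0.73 ± 0.36. The largest departure between weeks by unadjusted p was miR-1971, at -0.28 ± 0.20 at 1 week and 0.52 ± 0.20 at 6 weeks, a change of 0.80 ± 0.29 (SE).

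In cartilage of the same week the DMM effect was larger than in bone for 1 miRNA. Over the 359 miRNAs measured in both tissues, the difference of the effects passed the threshold for miR-6931-5p (0.279% higher in cartilage) and for 0 in the other direction (0%), and 59 had an unadjusted p under 0.05 (16.4%). The count of 59 became 37 to 67 when 1 array was left out. It was 22 without both bone sham mice 68 and 96, an alternative chosen after the data were seen. In bone miR-6931-5p read 7.76, 8.36, 8.20 and 7.67 in the sham mice and 8.22, 7.93, 8.31 and 8.24 in the DMM mice, with overlapping groups and a difference of 0.18 ± 0.18 (SE). In cartilage its mean went from 8.54 ± 0.13 to 11.14 ± 0.28 (SD, n = 3 pools each), a difference of 2.59 ± 0.21 (SE). The effect in cartilage exceeded that in bone by 2.41 ± 0.28 (SE, interval 1.83 to 3.00, adjusted p = 3.28e-06 by limma).

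In the fit to both tissues, 27 miRNAs were higher after DMM in cartilage (7.52%) and 0 lower (0%). The cartilage differences of the 27 ran from 0.49 to 2.59, and their bone differences from -0.38 to 0.21, with a median of 0.02 and 16 of 27 positive. For 21 of them the upper bound of the bone interval lay below a 2-fold rise. miR-1187, at 1.92 in cartilage, read 8.98, 10.83, 9.63 and 9.21 in bone of the sham mice and 9.27, 9.64, 10.21 and 10.13 in the DMM mice, where sham mouse 68 was highest. Its bone difference was 0.15 ± 0.43 (SE, interval -0.76 to 1.06). miR-574-5p, at 1.82 in cartilage, was at 0.18 ± 0.42 in bone. Of the 27, 7 (25.9%) were also among the 18 higher with array weights in bone, where the weights had not converged. They were miR-466i-5p, miR-3082-5p, miR-1187, miR-32-3p, miR-574-5p, miR-669n and miR-468-3p. All 18 were among the 359 shared miRNAs. The 7 made up 38.9% of the 18, beside the 7.52% of all 359 that were higher in cartilage. With weights the bone differences of the 7 lay close together, from 0.74 to 0.89. Without weights they ran from 0.09 to 0.21. miRNAs on the same arrays are not independent, so the 7 do not count as separate observations. The overlap was not tested. Cartilage arrays held pools of 3 mice and bone arrays single mice, and both tissues came from the same animals per the labels, which do not say which mice entered a pool, so arrays were treated as independent.

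**Figure D5:**
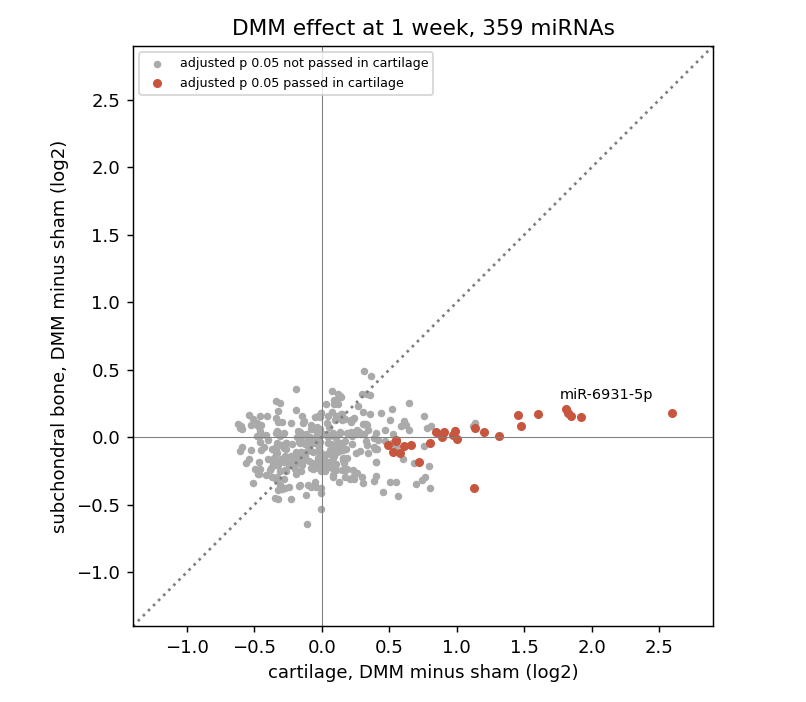
Each point is 1 of 359 miRNAs, with the DMM minus sham difference in cartilage on the x axis and in subchondral bone on the y axis (both log2, 1 week); the dotted line marks equal effects. The 27 red points, which passed the threshold in cartilage, lie between -0.38 and 0.21 in bone.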

How the data were processed

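The deposited table holds 569 miRNAs from Agilent mouse miRNA arrays (release 21), each labelled from 70 ng of total RNA. The deposited values run from 4.08 to 16.7, were read on that basis as the authors' log2 signals, and entered the fits without change. According to the submitters' processing notes limma 3.20.9 was used. How background, normalization and the miRNA filter were handled was not given in the sources used here. Of the columns with sample values, 0 were unused.

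A group-means model was fitted with limma 3.58.1 in R 4.3.3 to the 16 bone arrays over 490 miRNAs, with labels read by jsonlite 2.0.0. Its standard errors and intervals pool the spread of all 16 bone arrays, both weeks included, and draw on the other miRNAs. Effects in cartilage and bone were compared in a fit to 28 arrays over 359 shared miRNAs. The Benjamini-Hochberg adjustment ran over all miRNAs of a comparison, with a threshold of 0.05, and p-values measure the spread between mice in bone. The fit was tested on simulated data.

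The rule named the 12 largest changes in each direction past the threshold or, where fewer than 5 passed, the 10 with the smallest unadjusted p. The members and lists were chosen with earlier results of these data known. List members may be named, and miR-1971, the miRNAs without overlap, those called with array weights and the extreme values of mice 68 and 96 were picked with their values in view. Alternatives were other scalings, a filter, priors, array weights, other arrays in the fit and leaving out each array. The number of arrays limits the precision.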

Additional observations from a re-analysis of the deposited data

Results flagged for a closer look

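The DMM effect of miR-6931-5p at 1 week was 2.41 larger on the log2 scale in cartilage than in subchondral bone, and was singled out because the difference between the tissues itself passed the threshold (limma, adjusted p = 3.28e-06). Leaving out both sham mice 68 and 96 gave 2.40, quantile normalization gave 2.25, and centring of arrays by their 75th percentile gave 2.23. No single mouse was far enough from the other 3 of its group to be singled out in 58 groups tested, 29 miRNAs in sham and in DMM mice. The rule set the gap between a mouse and its nearest neighbour against the range of its group. Where sham mice 68 and 96 lay at opposite ends, each widened the range against which the other was judged. The rule therefore does not show that no mouse stood apart.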

How the results depend on the processing

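The count of miRNAs past the threshold in bone at 1 week was 0 as reported and 0 under each alternative except array weights, which gave 38. At an unadjusted p under 0.05 there were 3 as reported, 172 with array weights, 27 without sham mouse 68 (24 lower), 12 without sham mouse 86, 1 without sham mouse 96 and 0 without both 68 and 96. The count for the difference between weeks stayed at 0, and that for the difference between tissues at 1, under each alternative run. For 29 miRNAs followed over 15 settings, 17 of 420 values changed sign, in 6 miRNAs of the erythroid and leukocyte lists. The filter, the other prior and the fit to the week 1 arrays alone left each estimate unchanged, so no sign could change there. Of the 29, 20 were followed for their small p in these same arrays, so the low count does not show that signs were stable. With array weights miR-451a was at 0.51 and miR-144-3p at 0.070, and without both sham mice miR-451a was at 0.050. Leaving out 1 mouse at a time, miR-451a ranged from -0.62 to 0.16, miR-144-3p from -0.73 to 0.27, miR-144-5p from -0.61 to 0.083, miR-150-5p from -0.35 to 0.074, miR-486a-5p from -0.23 to 0.28 and miR-486a-3p from -0.074 to 0.12. The cause was not tested. Signal over background could not be assessed from the deposited values. No paired analysis was possible because the bone groups compared share no mouse number.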
